A study of Mus musculus with 2 samples.

Results

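The activator protein 1 (AP-1) and immediate early genes described here are 10 genes, Fos, Fosb, Fosl2, Jun, Junb, Jund, Egr1, Ier2, Atf3 and Dusp1, out of 24421 gene symbols with a value in each library. They were chosen by symbol, with their ratio between these same libraries already known, so the ratio that chose them is given below as a description and not as a test. All 10 symbols were found, and 9 of the 10 reached a mean of 1 RPKM over the libraries (reads scaled to gene length and library size), the level from which a gene is called expressed here, with Atf3 below it. RNA-seq was performed on granulocyte-monocyte progenitors (GMPs), the BM cells that give rise to granulocytes and monocytes, which were sorted by flow cytometry from female mice of a mixed H-2b/d background described as F1 semi-syngeneic. The control group consisted of non-tumor-bearing mice (library NTB-GMP, n = 1) and the other of mice implanted in the mammary gland with 4T1 (library 4T1-GMP, n = 1), a mouse mammary carcinoma line. Total RNA was extracted with TRIzol, and neither the number of mice behind each library nor their age was stated in the labels. With 1 library per group there was no replicate error and no test of tumor bearing, so every interval below covers counting error only. Reads without molecular identifiers are not independent molecules, so the intervals may be too narrow even for counting error.

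AP-1 is a dimeric transcription factor that pairs a JUN protein (JUN, JUNB or JUND) with another JUN, a FOS protein (FOS, FOSB, FOSL1 or FOSL2) or a member of the ATF family. Immediate early genes are transcribed within minutes of a stimulus from factors that already lie in the cell, such as serum response factor and CREB, and their mRNAs and proteins are mostly short-lived. In myeloid progenitors, JUN proteins are known as partners of PU.1 in monocyte differentiation, and JUNB is known as a restraint on the expansion of the granulocytic lineage.

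The promoters of 5 of the genes are shown because they stand for different directions and sizes of the ratio: Fosb and Jun with the lowest ratios of the expressed genes, Junb as the gene that was higher in 4T1-GMP, Fos as the founding partner of JUN, and Dusp1 as an inhibitor of the kinases that switch the others on. Each sequence holds the 250 bases before the RefSeq start of the gene on GRCm38.p6, read 5′ to 3′ on the strand of the gene, and positions are counted back from the start, the last base being -1. Fos lies at chr12:85473640-85473889 (plus strand), Fosb at chr7:19310046-19310295 (minus strand), Jun at chr4:95052223-95052472 (minus strand), Junb at chr8:84978749-84978998 (minus strand) and Dusp1 at chr17:26508473-26508722 (minus strand). Capitals mark matches to the cyclic AMP response element TGACGTCA, its core TGACGT, the JUN-binding variant TGACATCA, the TATA box TATAAA or the CCAAT box CCAAT.
Fos: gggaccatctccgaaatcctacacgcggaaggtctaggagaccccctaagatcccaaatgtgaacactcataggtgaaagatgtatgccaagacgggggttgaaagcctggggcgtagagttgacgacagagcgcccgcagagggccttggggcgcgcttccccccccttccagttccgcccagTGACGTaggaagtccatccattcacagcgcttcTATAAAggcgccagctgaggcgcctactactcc
Fosb: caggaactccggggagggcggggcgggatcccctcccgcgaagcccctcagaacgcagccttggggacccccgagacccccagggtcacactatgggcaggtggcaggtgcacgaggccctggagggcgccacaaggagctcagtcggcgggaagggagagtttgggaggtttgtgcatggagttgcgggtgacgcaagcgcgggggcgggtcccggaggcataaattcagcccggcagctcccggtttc
Jun: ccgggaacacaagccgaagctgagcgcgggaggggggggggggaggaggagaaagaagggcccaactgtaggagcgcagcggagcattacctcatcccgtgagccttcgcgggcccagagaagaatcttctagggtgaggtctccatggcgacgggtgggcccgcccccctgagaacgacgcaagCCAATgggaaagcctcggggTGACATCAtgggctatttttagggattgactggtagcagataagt
Junb: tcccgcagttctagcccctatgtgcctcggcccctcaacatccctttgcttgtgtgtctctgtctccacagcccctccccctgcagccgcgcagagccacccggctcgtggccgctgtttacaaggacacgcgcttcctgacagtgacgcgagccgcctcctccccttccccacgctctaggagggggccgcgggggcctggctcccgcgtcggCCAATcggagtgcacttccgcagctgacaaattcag
Dusp1: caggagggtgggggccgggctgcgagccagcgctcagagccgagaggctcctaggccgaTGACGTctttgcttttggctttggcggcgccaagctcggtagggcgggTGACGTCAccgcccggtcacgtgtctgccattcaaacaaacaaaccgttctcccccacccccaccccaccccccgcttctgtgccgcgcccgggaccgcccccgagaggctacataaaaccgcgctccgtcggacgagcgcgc

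The core TGACGT lay in the Fos promoter from -66 to -61, upstream of a TATAAA from -33 to -28. The Dusp1 promoter held the core from -191 to -186 and the full palindrome TGACGTCA from -143 to -136, which contains the core on both strands. The Jun promoter had a CCAAT from -65 to -61 and the variant TGACATCA from -45 to -38, whereas Junb had only a CCAAT, from -36 to -32. No capitals appear in Fosb, in which 3 copies of the GC box GGGCGG, left in lower case, were found. Promoters were available for 8 of the 10 genes, not for Egr1 and Ier2. Searching both strands, 3 of these 8 held TGACGT (Fos, Dusp1 and Atf3) against 6.47% of all 32851 RefSeq promoters, and 6 of 8 held GGGCGG against 32.7%. The full element TGACGTCA was in 1 of 8 against 1.55%, TGACATCA in 1 of 8 against 2.93%, TATAAA in 1 of 8 against 12.4% and CCAAT in 2 of 8 against 33.8%. The AP-1 site TGANTCA, present in 6.75% of promoters, and the CArG box bound by serum response factor, present in 1.47%, matched none of the 8 in this window. Junb, the gene that was higher in 4T1-GMP, held neither TGACGT nor GGGCGG, and neither did Jund, which was lower. Junb shared CCAAT with Jun, which was also lower.

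Most of these genes were lower in GMPs from tumor-bearing mice, and Junb was the exception. Of the 9 expressed genes, 8 were lower in 4T1-GMP and 1 was higher, where 45.3% of all 10378 expressed genes were lower. Ratios were taken as 4T1-GMP over NTB-GMP after adding 0.1 to each RPKM and taking log2, a scale on which the difference of a low gene comes out too small, and the 95% intervals are those of the ratio without the added 0.1. Fos, Fosb, Jun and Jund were past 2-fold lower, 4 of 9, beside 4.92% of the 10378. None of the 9 was past 2-fold higher, beside 3.25% of all genes. The median log2 ratio was -0.78, against 0.05 over all 10378 genes, whose 5th to 95th percentiles ran from -0.99 to 0.79. Because the same ratio chose the genes, nothing is read from these shares. The gene just past the 2-fold line was Fos at -1.22, and the next short of it was Egr1 at -0.78.

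**Figure D1:**
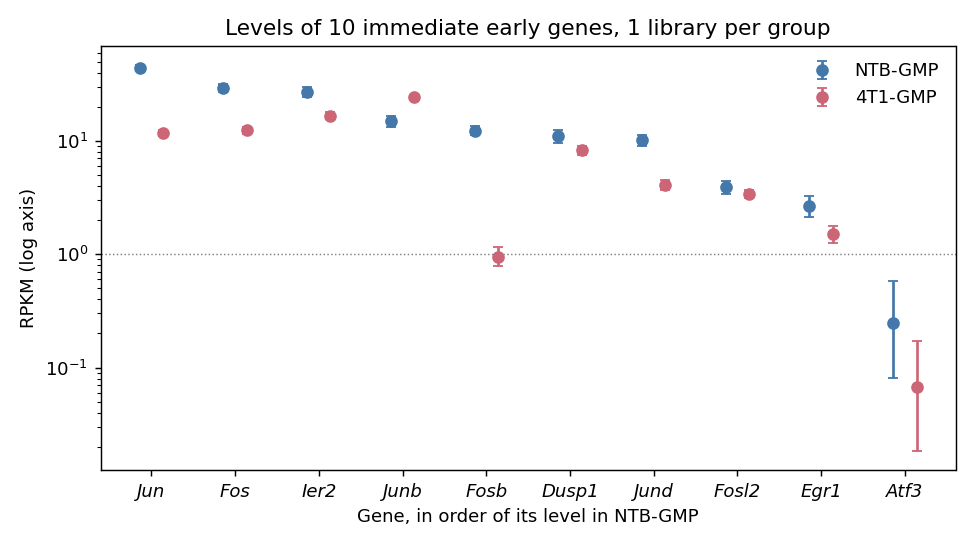
RPKM (log axis) of each gene in NTB-GMP (blue) and 4T1-GMP (red), in order of the NTB-GMP level, with exact 95% Poisson intervals on the recovered reads as bars and a dotted line at an RPKM of 1. Blue lies above red for every gene but Junb, and the widest gap is that of Fosb, 12.3 against 0.953.

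Among the FOS genes, which encode the partners that need a JUN protein to bind DNA, Fosb differed most and Fosl2 least. Fosb (chr7:19302696-19310051) was at 12.3 RPKM in NTB-GMP, from 473 reads, against 0.953 RPKM from 108 reads in 4T1-GMP, 12.9-fold lower. Its log2 ratio was -3.56 with the pseudocount, or -3.69 without it (95% interval -4.01 to -3.39), and 99.7% of the 10378 genes had a higher ratio. The intervals of its levels did not overlap, and Fosb went from the fifth of the 10 genes in NTB-GMP to the ninth in 4T1-GMP. Fos (chr12:85473890-85477273), the cellular counterpart of a viral oncogene and the usual partner of JUN, was at 29.2 RPKM in NTB-GMP, from 622 reads, against 12.4 RPKM from 782 reads in 4T1-GMP. That was 2.35-fold lower, with a log2 ratio of -1.22 (95% interval -1.38 to -1.08). Fos had more reads in 4T1-GMP, a library larger by a factor of 2.95 in the size behind the RPKM. Fosl2 (chr5:32135801-32157842), which encodes the FOS relative FRA-2, was at 3.89 RPKM (232 reads) and 3.38 RPKM (595 reads). Its log2 ratio was -0.20 with an interval from -0.42 to 0.02, so a difference in Fosl2 was not detectable at this depth. Fosl1, the remaining FOS gene, was listed at 0 in both libraries.

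The JUN genes, whose proteins can also pair with each other, went in different directions. Jun (chr4:95049034-95052222), the strongest activator of the family, was at 44.1 RPKM in NTB-GMP, the highest level of the 10 genes there, from 1432 reads, against 11.7 RPKM from 1120 reads in 4T1-GMP. Its log2 ratio was -1.91 (95% interval -2.03 to -1.80), 3.77-fold lower, and its reads were fewer in the deeper library. Jund (chr8:70698949-70700616), which encodes the JUN protein that resting cells usually keep, was at 10.1 RPKM (297 reads) and 4.09 RPKM (353 reads). Jund was thus 2.48-fold lower, with a log2 ratio of -1.29 (95% interval -1.54 to -1.08), close to that of Fos. Junb (chr8:84974484-84978718), which encodes a weaker activator that can oppose JUN, was at 14.8 RPKM in NTB-GMP, from 278 reads, against 24.2 RPKM from 1334 reads in 4T1-GMP. It was 1.63-fold higher, with a log2 ratio of 0.70 (95% interval 0.52 to 0.89), and 6.61% of all genes had a higher ratio. In the GENCODE M21 annotation Junb overlaps Prdx2 on the opposite strand, and Prdx2, a peroxiredoxin gene, was at 118 RPKM and 111 RPKM. Whether the counting used strand is not given in the sources used here, so Prdx2 reads cannot be told apart from Junb reads where they overlap. The length behind the Junb RPKM was 1840 bases, its RefSeq span, which is shorter than the GENCODE span above. Whether those 1840 bases meet Prdx2 was not examined.

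The other 4 genes encode an ATF family factor, a zinc finger factor, a regulator of unclear biochemical activity and a phosphatase, and none had a ratio as low as that of Jun. Ier2 (chr8:84661331-84662852), which encodes a small nuclear protein, was at 26.9 RPKM (417 reads) and 16.7 RPKM (763 reads), a log2 ratio of -0.69 (95% interval -0.86 to -0.51). Egr1 (chr18:34859823-34864984), a zinc finger factor linked to monocyte differentiation, was at 2.65 RPKM (83 reads) and 1.51 RPKM (139 reads). Its log2 ratio was -0.78, with an interval from -1.22 to -0.41 that reaches past 2-fold. Dusp1 (chr17:26505590-26562128), which encodes a nuclear phosphatase that switches off the stress-activated MAP kinases, was at 11.0 RPKM (217 reads) and 8.25 RPKM (481 reads), a log2 ratio of -0.41 (95% interval -0.65 to -0.17). In its GENCODE span, Dusp1 overlaps Ergic1 on the opposite strand, which was at 36.6 RPKM and 37.0 RPKM. The RefSeq start of Dusp1 lies inside that span, and the length behind its RPKM was 1942 bases. Whether those 1942 bases meet Ergic1 was not examined. Atf3 (chr1:191170296-191218039), a stress-induced repressor, was close to the detection limit, at 0.249 RPKM from 5 reads and 0.0674 RPKM from 4 reads. Its interval, from -4.22 to 0.33, included no difference, and no direction is given for it. Antisense transcripts overlap Jun and Jund in the annotation and had no value of their own in these libraries.

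**Figure D2:**
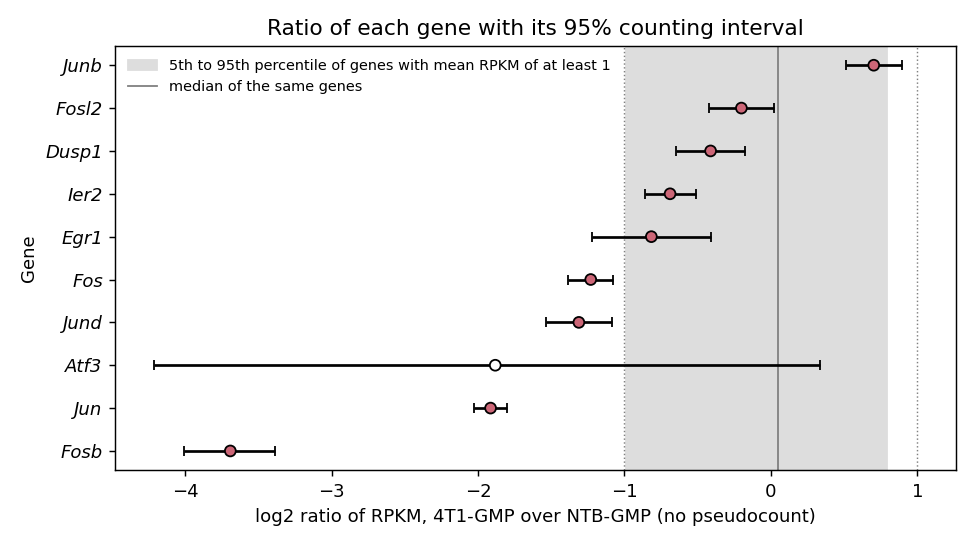
Log2 ratio of RPKM in 4T1-GMP over NTB-GMP, without pseudocount, for each gene, with 95% Clopper-Pearson intervals on the reads as bars, and the band and line taken from all 10378 genes with the pseudocount. The open point is Atf3, too low to be called expressed, and of the filled points Jun, Jund, Fos and Fosb lie left of the dotted 2-fold line at -1, and Junb alone lies to the right of 0.

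RPKM is per length, so levels can be set in order within a library. In NTB-GMP the order from the highest was Jun, Fos, Ier2, Junb, Fosb, Dusp1, Jund, Fosl2, Egr1 and Atf3. Fos and Ier2 had overlapping counting intervals, as did each neighboring pair from Junb to Jund, and the other neighbors did not overlap. In 4T1-GMP the order was Junb, Ier2, Fos, Jun, Dusp1, Jund, Fosl2, Egr1, Fosb and Atf3, and only Fos and Jun overlapped among neighbors. The top place thus passed from Jun to Junb, while Fosl2, Egr1 and Atf3 kept their order among themselves. The median over the 10378 genes was 12.1 RPKM in the former library and 12.3 RPKM in the latter, and 5 of the 10 genes were above the median in NTB-GMP and 3 of the 10 in 4T1-GMP.

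FOS and JUN messages as a whole were fewer in 4T1-GMP, and their make-up differed. Their summed level was 114 RPKM in NTB-GMP against 56.7 RPKM in 4T1-GMP, 2.02-fold lower. Without Junb the sums were 99.6 RPKM and 32.6 RPKM, 3.06-fold lower. The FOS genes summed to 45.4 RPKM and 16.8 RPKM, and the JUN genes to 69.1 RPKM and 39.95 RPKM. Jun made up 38.5% of the sum in NTB-GMP and 20.6% in 4T1-GMP. Junb made up 12.96% and 42.6%, the largest share in 4T1-GMP. Fosb made up 10.8% and 1.68%, whereas Fos at 25.5% and 21.9% and Jund at 8.85% and 7.20% had shares that lay closer together.

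**Figure D3:**
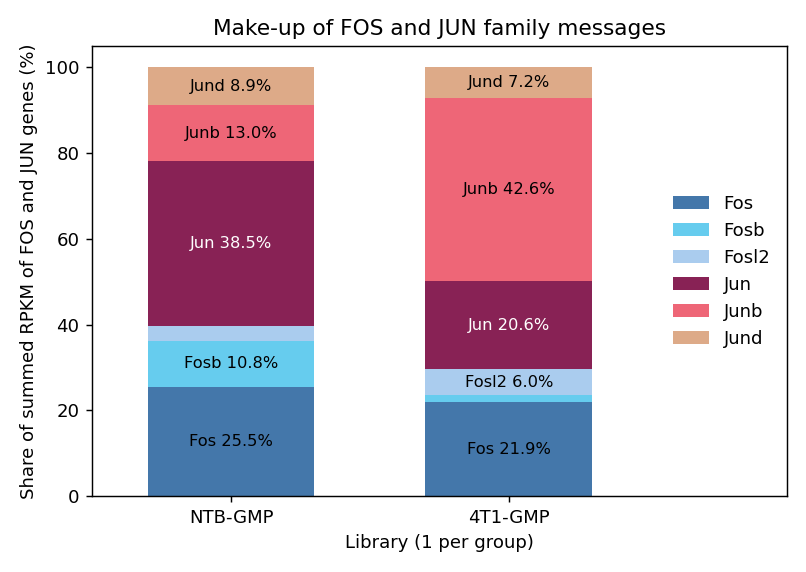
Share (%) of each gene in the summed RPKM of the FOS and JUN genes, in 1 library per group. The Junb segment covers 12.96% of the NTB-GMP bar and 42.6% of the 4T1-GMP bar, and the Jun segment 38.5% and 20.6%.

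Ratios between these genes within a library do not depend on the library size. Junb over Jun was 0.336 in NTB-GMP and 2.06 in 4T1-GMP, a change of 6.14-fold (log2 2.62, 95% counting interval 2.40 to 2.84). Junb over Jund went from 1.46 to 5.91, and Junb over Fos from 0.509 to 1.94. Junb therefore outnumbered each of the other JUN messages and Fos in 4T1-GMP, per length, while in NTB-GMP it was below Jun and Fos. Fosb over Fos went from 0.422 to 0.0766, 5.51-fold lower (log2 -2.46, 95% counting interval -2.80 to -2.12). Fosb over Fosl2 went from 3.17 to 0.282. Fos over Jun moved less, from 0.661 to 1.06, a log2 change of 0.68 (0.50 to 0.87). Dusp1 over Fos, the phosphatase against a target of the kinases it switches off, went from 0.376 to 0.663.

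Each of the 10 genes had at most 4 exons in its principal transcript. In GENCODE M21, Jun, Junb, Jund and Ier2 lie on 1 exon, Egr1 on 2 exons and the other 5 on 4 exons, where 219 of the 9697 expressed protein-coding genes lie on 1 exon and 2355 on 2 to 5 exons. The lengths behind their RPKM ran from 1522 bases for Ier2 to 5863 bases for Fosl2, on both sides of the median of 2723 bases over those coding genes. Their principal transcripts had a GC content of 51.9% to 67.2%, above the median of 50.04% over the same coding genes. The pentamer AUUUA, the core of the elements that mark short-lived mRNAs, was found in the 3′ UTR of 9 of the 10, with a median of 2.5 copies, against a median of 1 copy and 67.0% of those coding genes with at least 1. Fosl2 had the most, 8 copies, and Ier2 had 0, while Fosb had 1 and Junb had 2, so copies and ratios did not run in 1 order. Of the 219 single-exon coding genes 6.85% were past 2-fold lower, or 5.16% of 213 without these genes and the Hspa1 pair, beside 4.197% of all expressed coding genes.

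Genes for the proteins that pair with FOS and JUN lay on both sides. Of 14 genes for ATF, BATF, JDP2 and MAF partners, 8 were expressed, 5 of them higher and 3 lower in 4T1-GMP, a division near that of all expressed genes (45.3% lower), with a median log2 ratio of 0.25 against 0.05. Atf4, the effector of the integrated stress response, was at 88.0 RPKM and 129 RPKM, a log2 ratio of 0.55. Atf5 was at 3.25 RPKM and 7.26 RPKM, the only one of the 8 past 2-fold. Batf, which competes with FOS for JUN proteins, was at 13.9 RPKM and 19.1 RPKM, and Jdp2, a repressor that dimerizes with JUN, was at 9.71 RPKM and 14.8 RPKM. The intervals of both lay above no difference, from 0.06 to 0.88 for Batf and from 0.21 to 1.03 for Jdp2. Atf7 was the partner with the lowest ratio, at 13.4 RPKM and 7.07 RPKM (log2 -0.91). Atf2 (0.05), Mafg (-0.04) and Mafk (-0.08) had log2 ratios whose intervals included no difference.

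Other immediate early genes lay on both sides as well. Of 40 listed, 24 were expressed, with 12 higher and 12 lower and a median log2 ratio of -0.01. Past 2-fold were 3 of the 24 in each direction, beside 4.92% of all expressed genes lower and 3.25% higher. Socs3 counted as expressed only through its level in 4T1-GMP and Rgs1 only through that in NTB-GMP, so these counts are no measure of the list. Socs3, the feedback inhibitor of G-CSF and IL-6 receptor signaling, was at 0.216 RPKM (2 reads) and 7.19 RPKM (196 reads), a log2 ratio of 4.53 with an interval from 3.18 to 8.11. Gadd45b, a stress sensor in myeloid cells, was at 8.07 RPKM and 18.9 RPKM (log2 1.22). On the lower side, Rgs1, a regulator of G protein signaling, was at 4.58 RPKM and 0.902 RPKM (log2 -2.22), and Klf2, a zinc finger factor of quiescent leukocytes, was at 2.81 RPKM and 1.19 RPKM (log2 -1.17). Klf4, a zinc finger factor of monocytes that missed the level for expressed genes, was at 1.48 RPKM (46 reads) and 0.120 RPKM (11 reads), a log2 ratio of -2.85. Plk3, also below that level, went the other way, at 0.166 RPKM (4 reads) and 0.746 RPKM (53 reads), a log2 ratio of 1.67. Socs3 had a higher ratio than any of the 10 genes above.

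Upstream, the 27 genes for MAP kinases, their activating kinases, RSK and MSK kinases, ELK factors, serum response factor with its cofactors and CREB were all expressed, with 14 higher, 13 lower and a median log2 ratio of 0.07. Of all expressed genes 45.3% were lower and 3.25% past 2-fold higher. Rps6ka3, which encodes the kinase RSK2 that phosphorylates CREB and FOS, was the only one of the 27 past 2-fold, at 25.6 RPKM and 85.8 RPKM (log2 1.74). The next were Map3k1 at 14.4 RPKM and 9.34 RPKM (log2 -0.62), Srf at 13.5 RPKM and 20.7 RPKM (log2 0.61) and Mkl2, a cofactor of serum response factor, at 4.01 RPKM and 2.65 RPKM (log2 -0.58). Of 15 feedback genes, which are those for dual-specificity phosphatases other than Dusp1, Sprouty and SPRED proteins and ZFP36 relatives, 8 were expressed, with 7 lower and 1 higher (45.3% of all expressed genes were lower) and a median log2 ratio of -0.65 (0.05 over all). Dusp6, the phosphatase of ERK, was at 7.38 RPKM and 2.74 RPKM (log2 -1.40), the 1 of the 8 past 2-fold, beside 4.92% of all expressed genes. Dusp7 was at 6.70 RPKM and 3.45 RPKM (log2 -0.94), Zfp36l2, which binds AU-rich elements, at 87.2 RPKM and 50.1 RPKM (log2 -0.80), and Spred2 at 6.81 RPKM and 4.18 RPKM (log2 -0.69).

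Genes known as AP-1 targets differed widely in both directions. Of 21 listed, 10 were expressed, with 7 higher and 3 lower and a median log2 ratio of 0.34, where 5676 of the 10378 expressed genes were higher. Past 2-fold higher were 3 of the 10, beside 3.25% of all, but Il1b and Mmp9 counted as expressed only through their level in 4T1-GMP, so these counts are no measure of the list. Il1b, the inflammatory cytokine, was at 0.0740 RPKM (1 read) and 12.8 RPKM (509 reads), a log2 ratio of 6.21 with an interval from 4.95 to 12.74. Mmp9, a gelatinase, was at 0.588 RPKM and 15.6 RPKM (log2 4.52), and Mt1, a metallothionein, was at 40.4 RPKM and 180 RPKM (log2 2.15). Tgfb1 had the lowest ratio of the 10 expressed targets, at 70.7 RPKM and 46.7 RPKM (log2 -0.60). Of the targets below that level, Il6, a cytokine, was at 1.81 RPKM (20 reads) and 0.184 RPKM (6 reads), a log2 ratio of -2.75. Ccnd1, which encodes cyclin D1, was at 0.957 RPKM (37 reads) and 0.105 RPKM (12 reads), a log2 ratio of -2.37. Mt2, also below that level, went the other way, at 0 RPKM and 1.26 RPKM (21 reads), a log2 ratio of 3.76. Mmp9 is also a marker of mature neutrophils, and it is counted among those below.

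**Figure D4:**
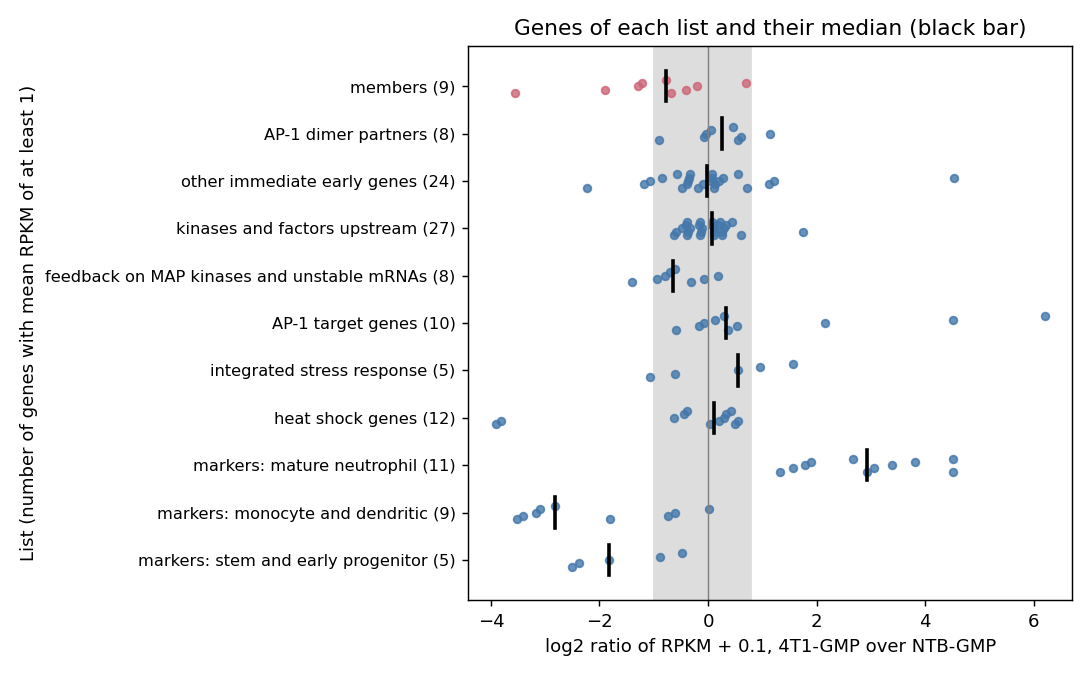
Log2 ratio of RPKM + 0.1, 4T1-GMP over NTB-GMP, of each expressed gene in the lists named in the text, with black bars at the list medians and the band covering the 5th to 95th percentiles of all 10378 genes. The AP-1 and immediate early genes (red) have a median of -0.78, the feedback genes -0.65, the other immediate early genes -0.01 and the AP-1 targets 0.34.

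Stress genes that often accompany immediate early genes differed in direction among themselves. Hspa1a and Hspa1b, the inducible HSP70 genes, were at 99.4 RPKM and 6.98 RPKM (log2 -3.81) and at 111 RPKM and 7.27 RPKM (log2 -3.91), lower by more than Fosb was. The 2 genes are near-identical copies, and the division of reads between them is uncertain. They were the only ones past 2-fold of the 12 expressed heat shock genes (13 listed), of which 7 were higher and 5 lower with a median of 0.12. Of all expressed genes 45.3% were lower and 4.92% past 2-fold lower. Dnajb1, the HSP40 partner of HSP70, was at 23.0 RPKM and 14.8 RPKM (log2 -0.63), and Hspe1 was at 134 RPKM and 196 RPKM (log2 0.55). Of the integrated stress response genes, 5 of 7 were expressed, with Asns at 11.2 RPKM and 33.0 RPKM (log2 1.56), Sesn2 at 0.888 RPKM and 1.82 RPKM (log2 0.96), Ddit3 at 6.43 RPKM and 4.21 RPKM (log2 -0.60) and Ppp1r15a at 11.0 RPKM and 5.198 RPKM (log2 -1.07). The part of such stress in the ratios of Fos, Fosb and Jun was not tested.

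The libraries also differed in their marker genes and in depth. All 8 GMP markers were expressed in both, Mpo at 5163 and 5625 RPKM, with the largest log2 ratios at Cd34 (-1.37), Ms4a3 (1.35), Prtn3 (1.24) and Ctsg (1.11). The 11 mature neutrophil markers were all past 2-fold higher, beside 3.25% of all expressed genes. Mmp8, Mmp9 and Ly6g counted as expressed only through their level in 4T1-GMP, so this count is no measure of the list. The 11 markers summed to 512 RPKM in NTB-GMP against 4055 RPKM in 4T1-GMP. Mmp9 (4.52), Mmp8 (4.51), Retnlg (3.81) and S100a9 (3.38) had the largest log2 ratios. In the other direction, the summed level went from 213 to 83.2 RPKM for the 12 monocyte and dendritic markers, of which 8 of 9 expressed were lower. It went from 129 to 61.6 RPKM for the 9 stem and early progenitor markers (5 of 5 lower), from 408 to 170 RPKM for the 5 basophil and mast cell markers (4 of 4 lower) and from 21.2 to 6.47 RPKM for the 7 erythroid and megakaryocyte markers (4 of 4 lower), with Hba-a1 and Hbb-bs listed at 0. Of the monocyte and dendritic markers, Ly86 and Cx3cr1 counted as expressed only through their level in NTB-GMP. The same held for Gata1, Klf1 and Gp9 of the erythroid and megakaryocyte markers. The counts of lower genes are therefore no measure of these lists. Among the expressed markers, the largest log2 ratios in size were those of H2-Aa (-3.52), H2-Ab1 (-3.40), Ly86 (-3.18) and Cd74 (-3.10) for monocyte and dendritic cells. For stem cells and early progenitors they were Gata2 (-2.50), Flt3 (-2.38), Meis1 (-1.83) and Hlf (-0.88). For basophils and mast cells they were Ms4a2 (-1.86), Cpa3 (-1.54), Prss34 (-1.42) and Mcpt8 (-0.84), and for erythroid cells and megakaryocytes Klf1 (-2.42), Gata1 (-2.26), Gp9 (-1.60) and Itga2b (-1.51). The 5 B cell markers summed to 0.825 and 0.0627 RPKM, and of the 5 T and NK cell markers only Nkg7 was expressed (log2 0.82), with Cd3g listed at 0 in both libraries. In bulk RNA, fewer cells of a type and less RNA per cell cannot be told apart, and the part of these cell types in the ratios of Fos, Jun, Junb and the others was not tested. Rn45s, the ribosomal RNA precursor, was at 29060 RPKM in NTB-GMP against 11960 RPKM in 4T1-GMP, and the nuclear RNAs Malat1 (985 and 575 RPKM) and Neat1 (21.2 and 13.02 RPKM) were lower as well. The recovered reads summed to 10006760 and 28000933, and the library sizes behind the RPKM were 10180365 and 30016263. At these sizes 3 reads on a gene of 1 kilobase correspond to 0.295 RPKM in NTB-GMP, against 0.0999 RPKM in 4T1-GMP, so of the 10 genes only Atf3 lay near the floor.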

How the data were processed

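Each library's values were deposited by the authors as RPKM, 1 value per gene symbol, and the labels list CASAVA 1.8.2, cutadapt 1.2.1, TopHat2 2.0.13, Picard 1.97, HTSeq 0.6.1 and edgeR 3.12.1 with the mm10 build; strand use and read mapping rules are not given in the sources used here. The RPKM carry full precision, so whole reads were recovered from the ratio of the libraries for 14833 of 14833 genes above 0 (relative tolerance 1.000e-12); counts may be too low by a common factor, and sum to 10006760 and 28000933. The sizes behind the RPKM are not whole numbers and stand in a ratio of 0.339, as from a trimmed mean of log ratios (0.339), against 0.357 for the sums of reads, a scaling that the labels do not state.

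Genes at a mean of 1 RPKM or more (10378, called expressed) were compared as log2(RPKM + 0.1), and past 2-fold was the call. Intervals are 95% Clopper-Pearson (ratios) or exact Poisson (levels), on reads. For pairs of genes a normal approximation to the log of the read counts was used. No tests were run with 1 library per group. The genes, lists and alternatives were chosen with earlier results of these data known. From each list the 4 genes with the largest log2 ratio in size were named, with all AP-1 partners, the 10 genes and Rn45s. Added after their values were seen were Mpo, Klf4, Plk3, Il6, Ccnd1, Mt2, Ly6g, Cx3cr1, Cd200r3, the markers listed at 0 and the genes that overlap Junb and Dusp1. Reads recovery was tested on simulated data. Locations and transcripts came from GENCODE M21, promoters from RefSeq (GRCm38.p6). Python 3.11.15, numpy 2.4.6, pandas 2.3.3, scipy 1.17.1 and matplotlib 3.10.9 were used.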

Additional observations from a re-analysis of the deposited data

How the results depend on the processing

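No paired analysis was possible because there is only a single library on either side. Over 80 recomputed ratios of single genes, 79 moved by less than their counting interval and none changed direction. The settings of all genes above 0 and of a mean RPKM of at least 5 change only which genes are counted. They cannot move the ratio of a single gene, so their part of the 79 was fixed in advance. Fosb with a pseudocount of 1 was at -2.77, as low values are drawn together by a larger pseudocount. Across the alternatives the log2 ratio of Junb ran from 0.61 to 0.77, Jun from -2.01 to -1.83, Fos from -1.31 to -1.15, Jund from -1.38 to -1.13 and Fosl2 from -0.28 to -0.04. Among genes at a mean RPKM of at least 1, 8 of 9 were lower with every scaling tried. The scalings were quantile normalization, a trimmed mean, median centring, leaving out Rn45s and, chosen after seeing the data, library sizes as sums of the reads. A pseudocount added to both libraries cannot change a direction, so the same 8 of 9 with each pseudocount was fixed in advance. The median of -0.78 was -0.66 with a pseudocount of 1, -0.92 with all genes above 0 and -1.22 at a mean RPKM of at least 5, where other genes were counted. The other immediate early genes past 2-fold lower, 3 as reported, were 1 with a pseudocount of 1, 6 with all genes above 0 and 1 at a mean RPKM of at least 5, and their median of -0.01 was -0.13 with all genes above 0 and 0.06 with the sums of reads. No mitochondrial gene was listed, so leaving these out with Rn45s was not run. Depth limits Atf3, whose direction was not detectable.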
